A study of Mus musculus with 6 samples.

Results

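Aquaporins are the water channels of cell membranes, and the kidney uses a different set in each segment of the nephron. The 9 genes described here are 8 aquaporins and Avpr2, which encodes the vasopressin V2 receptor. They were taken by name, with every probe set that the platform annotation pairs with 1 of these symbols alone. That gave 20 of the 45037 probe sets tested, and 9 of the 18193 genes with a probe set of their own. Each of the 6 samples was total kidney RNA from 1 male mouse aged 10 weeks. The 3 ICD animals, titled TG, were heterozygous for an allele that expresses the soluble intracellular domain (ICD) of megalin, the endocytic receptor of the proximal tubule, and the 3 wild type animals were their littermates. The sources used here do not give the strain or the promoter behind the ICD allele. No other treatment was named. Values are RMA log2 values of an Affymetrix array, so a difference of 1 is a factor of 2 on the array's scale.

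Water leaves the proximal tubule and the thin descending limb through Aqp1, whatever the state of water balance. In the collecting duct, vasopressin binds the V2 receptor on principal cells, cAMP rises, and vesicles with Aqp2 fuse with the apical membrane, while Aqp3 and Aqp4 let the water out on the basolateral side. Over longer times the same signal also raises transcription of Aqp2. Aqp7 carries water and glycerol in the late proximal tubule, Aqp8 and Aqp11 are mainly intracellular channels, and Aqp6 sits in vesicles of intercalated cells. The comparison therefore asks whether an allele expressing a megalin fragment goes with other levels of channels in megalin's own segment or downstream. With the promoter not given, the segments that express the allele are not known here.

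The 250 bases before the RefSeq transcription start of Aqp2 and Avpr2 are shown because Avpr2 had the largest difference among these genes in absolute size and Aqp2 is the channel that its signal controls. The Aqp2 window is chr15:99578806-99579055 and the Avpr2 window chrX:73891852-73892101, both on the plus strand of GRCm38.p6. Capitals mark matches to the motifs searched.
Aqp2: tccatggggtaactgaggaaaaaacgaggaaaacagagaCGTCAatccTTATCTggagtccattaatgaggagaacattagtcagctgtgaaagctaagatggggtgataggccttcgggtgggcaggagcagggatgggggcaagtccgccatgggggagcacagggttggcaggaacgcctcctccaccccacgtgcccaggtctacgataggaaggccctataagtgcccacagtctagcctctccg
Avpr2: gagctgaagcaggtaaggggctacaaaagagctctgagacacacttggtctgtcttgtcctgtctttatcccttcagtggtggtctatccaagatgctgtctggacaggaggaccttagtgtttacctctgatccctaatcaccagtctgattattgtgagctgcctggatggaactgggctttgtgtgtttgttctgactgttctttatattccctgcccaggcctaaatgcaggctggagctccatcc
Both strands were searched for TGACG, the beginning of the cAMP response element, for the whole element TGACGTCA, which contains TGACG, for AGATAA, a site of GATA factors, and for TGGAAA, the core of the tonicity element bound by Nfat5. The Aqp2 window held TGACG on its minus strand, 207 to 211 bases before the start, and AGATAA on its minus strand, 197 to 202 bases before it. The Avpr2 window held none of the 4 motifs. Of all 32851 windows of this length, 17.8% held TGACG, 1.55% the whole element, 9.99% AGATAA and 18.6% TGGAAA. Windows of 8 of the 9 genes were searched. TGACG was found in 1 of them, AGATAA in 2 (Aqp2 and Aqp7), TGGAAA in 1 (Aqp7) and the whole element in 0.

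The tissue was kidney by its markers. The 13 genes of the proximal tubule list had mean values of 8.89 to 14.6, and the 6 genes of the thick ascending limb 8.94 to 14.38. The proximal markers set 1 array apart: their mean, with each gene centred on the 6 arrays, was -0.68 on the array labelled wild type 3 and 0.014 to 0.21 on the other 5. Of the 13 genes, 4 carried most of this: Slc5a12 (4.12 there against a mean of 8.89), Slc6a19 (9.43 against 10.7), Slc5a2 (10.40 against 11.52) and Slc22a8 (11.26 against 12.21). Others were level there, such as Slc22a6 (13.06 against 13.09), or above their mean, such as Slc27a2 (14.67 against 14.6) and Pck1 (13.04 against 12.9). Megalin's own probe set 1427133_s_at was also lowest on that array, though its groups did not differ past the threshold (limma adjusted p = 0.891). It read 12.13 there, 13.01 and 12.97 on wild type 1 and 2, and 12.25, 12.37 and 12.26 on the ICD arrays. Megalin's brightest probe set, 1452320_at, read 12.77 to 12.93 on all 6. Whether the label is right was not tested, and this animal is called the array labelled wild type 3 throughout.

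None of the 20 probe sets passed the threshold of a limma adjusted p under 0.05. Their adjusted p ranged from 0.714 to 0.999, and 0% of all 45037 probe sets passed. At an unadjusted limma p under 0.05, 2 of the 20 were lower in ICD kidneys (1 of Aqp6 and that of Avpr2) and 0 were higher, beside 2.26% of all probe sets lower and 3.61% higher. At the same 2 probe sets all 3 ICD arrays lay below all 3 wild type arrays. Over all probe sets the groups failed to overlap in that direction for 5.05%, and in the other direction for 5.44%. In sign alone, 15 of the 20 differences were negative (median -0.037), where 52.8% of all probe sets were negative (median -0.0061). That count was 9 of 20 without ICD 1, 10 without ICD 3 and 17 without ICD 2. Leaving out the array labelled wild type 3 gave 12. Several probe sets come from 1 gene, such as all 4 of Aqp6, which were negative, so the count is not of independent measurements. At the brightest probe set of each gene, Aqp3 (0.0042), Aqp4 (0.057) and Aqp11 (0.088) were positive and the other genes negative. Over all genes, taken the same way, 56.1% were negative. At the 20 probe sets the 95% confidence intervals reached between 0.15 and 0.66 to either side of the estimate, with a median of 0.23.

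**Figure D1:**
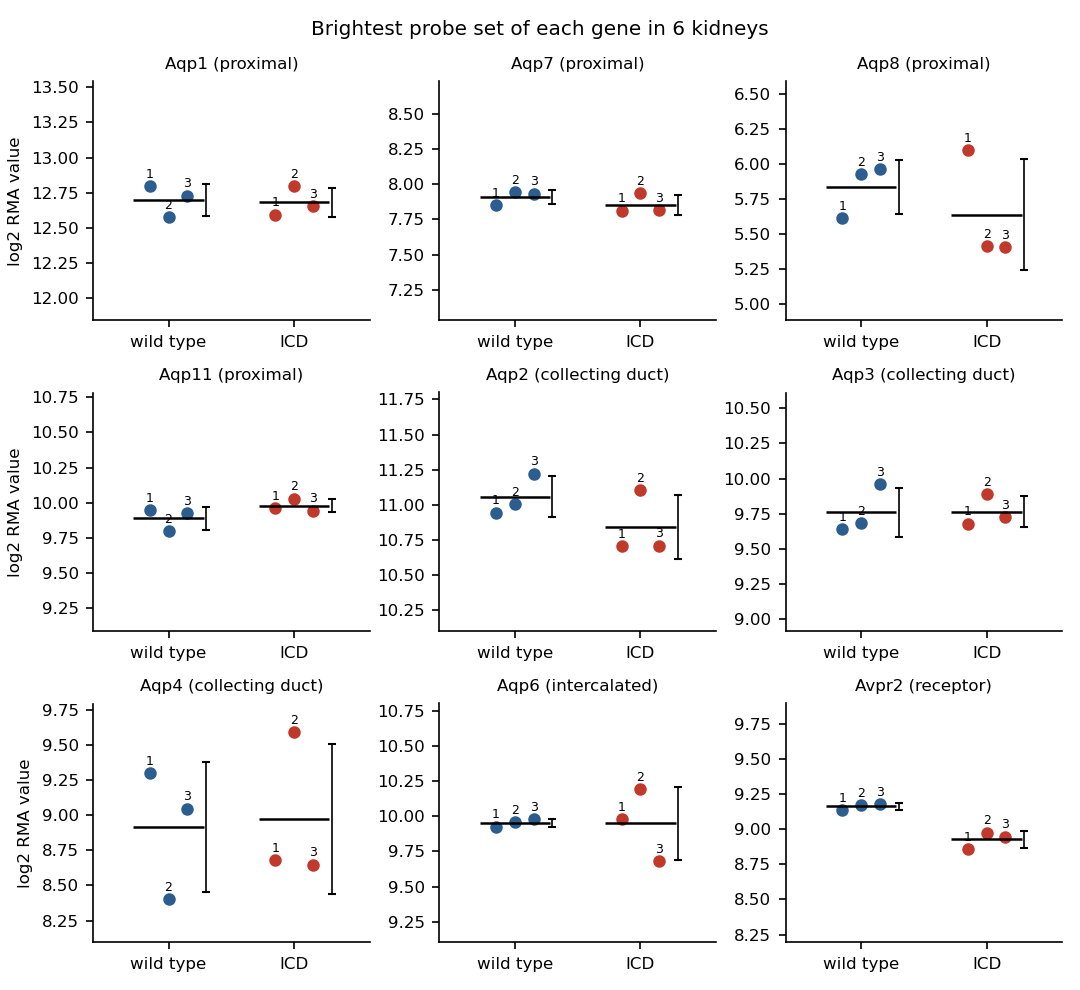
Log2 RMA value (y axis, each panel spanning the same width) of the brightest probe set of each gene in wild type and ICD kidneys. Points are animals numbered by replicate, lines are means and bars are SD (n = 3). The groups separate for Avpr2 alone, and Aqp4 spreads most within both groups.

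The V2 receptor is the entry point of the pathway. Its only probe set, 1450277_at, read 8.86, 8.98 and 8.95 in the ICD kidneys and 9.13, 9.17 and 9.18 in the wild type kidneys. Every ICD kidney lay below every wild type kidney, and the spread within groups was small, at the 9.56th percentile of the probe sets at or above the median level. The means were 8.93 ± 0.060 (SD, n = 3) and 9.16 ± 0.025, a difference of -0.23 ± 0.066 (SE), or 0.85 times the wild type level. The 95% confidence interval ran from -0.39 to -0.084, and the limma adjusted p was 0.714 (unadjusted p = 0.00694). Leaving out 1 array at a time gave -0.26 to -0.20, with adjusted p of 0.589 or more, so the difference did not pass under any of these fits. Avpr2 lies on the X chromosome between L1cam and Arhgap4, and all 6 animals were male. In whole kidney RNA, fewer receptor-bearing cells and less RNA per cell cannot be told apart.

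Markers of principal cells, the collecting duct cells that hold the receptor and Aqp2, were lower as well. All 8 measured markers had negative differences (median -0.081, against -0.012 over all 18193 genes, of which 56.1% were negative). With 1 array left out, 6 or 7 of the 8 were negative, and leaving out the array labelled wild type 3 brought the median to -0.038. Their centred mean was -0.077, -0.022 and -0.061 on the ICD arrays and 0.075, 0.022 and 0.063 on the wild type arrays. Centred Avpr2 minus that mean was -0.11, -0.047 and -0.037 on the ICD arrays and 0.014, 0.11 and 0.072 on the wild type arrays. The groups differed by -0.13 in this value. The single markers ran from -0.28 (Elf5) to -0.0031 (Gata3), so their mean is not a measure of cell number. Scnn1a, the alpha subunit of the epithelial sodium channel, read 10.01, 9.93 and 9.90 in ICD and 10.11, 10.24 and 10.12 in wild type kidneys, without overlap (difference -0.21 ± 0.070 SE, limma adjusted p = 0.734). Gata3, a transcription factor of the duct, differed by -0.0031 and Hsd11b2, which shields the mineralocorticoid receptor from cortisol and corticosterone, by -0.040. The part of the principal cell markers in the Avpr2 difference was not tested.

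Aqp2 is the channel that vasopressin moves to the apical membrane. Its probe set 1418903_at read 10.707, 11.104 and 10.710 in ICD kidneys and 10.944, 11.005 and 11.222 in wild type kidneys. ICD 1 and ICD 3 lay below all wild type arrays, whereas ICD 2 lay above wild type 1 and 2. The difference was -0.22 ± 0.12 (SE), with an interval of -0.50 to 0.068 and a limma adjusted p of 0.917. Dropping ICD 2 gave -0.35 (limma adjusted p = 0.934), and dropping the array labelled wild type 3 gave -0.13 (limma adjusted p = 1.0). Aqp2 thus differed by nearly the same amount as Avpr2, but with a within-group SD of 0.19 against 0.046. Centred Aqp2 minus the principal cell marker mean was -0.16, 0.18 and -0.18 on the ICD arrays and -0.080, 0.034 and 0.21 on the wild type arrays, so these groups overlapped.

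Aqp3, the basolateral channel for water and glycerol, had 4 probe sets, and 3 of them come from 1 source sequence in the annotation. The brightest, 1450460_at, read 9.68, 9.89 and 9.73 in ICD and 9.64, 9.68 and 9.96 in wild type kidneys. The groups overlapped fully, with a difference of 0.0042 (interval -0.23 to 0.24). The others differed by 0.044 (1422007_at), -0.11 (1422008_a_at) and -0.16 (1447727_at), and the last had a mean of 4.56, below the median of all probe sets (6.64). The sign of the bright probe sets was not stable: the value of 1450460_at was -0.057 when ICD 2 was dropped and 0.10 when the array labelled wild type 3 was.

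Aqp4, the other basolateral channel of principal cells, which in the mouse is also found in the late proximal tubule, varied more between animals than between genotypes. Its probe set 1425382_a_at read 8.68, 9.59 and 8.65 in ICD kidneys and 9.30, 8.40 and 9.05 in wild type kidneys. ICD 2 and wild type 1 were high and wild type 2 was lowest, so each group held both high and low animals. The range over the 6 arrays was 1.19, a factor of 2.28, at a group difference of 0.057 (interval -0.60 to 0.72, limma adjusted p = 0.996).

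The other Aqp4 probe sets gave nearly the same order of animals. At 1434449_at the ICD arrays read 8.44, 9.48 and 8.58 and the wild type arrays 9.23, 8.49 and 8.92, a range of 1.04. At the dimmer 1447745_at they read 6.80, 7.07 and 6.58 against 7.12, 6.75 and 6.88, a range of 0.54. All 3 probe sets thus put ICD 2 and wild type 1 above the other 4 animals. The within-group SD was 0.50 and 0.48 at the brighter ones, both at the 99.1th percentile of probe sets at or above the median level. The sign of the group difference turned with the array left out, from -0.25 without ICD 2 to 0.25 without wild type 1 at 1425382_a_at.

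The animals with high Aqp4 did not share a level of principal cell markers or of Aqp2. The marker mean was 0.075 on wild type 1, the highest of the 6, and -0.022 on ICD 2, below every wild type array. Centred Aqp2 was 0.16 on ICD 2 and -0.0048 on wild type 1, and was highest on the array labelled wild type 3 (0.27). The 3 markers of the late proximal tubule averaged 0.11 on ICD 2 and 0.029 on wild type 1, with 0.073 on ICD 1, -0.17 on ICD 3, -0.033 on wild type 2 and -0.0098 on the array labelled wild type 3. The part of either segment in the spread of Aqp4 was not tested.

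**Figure D2:**
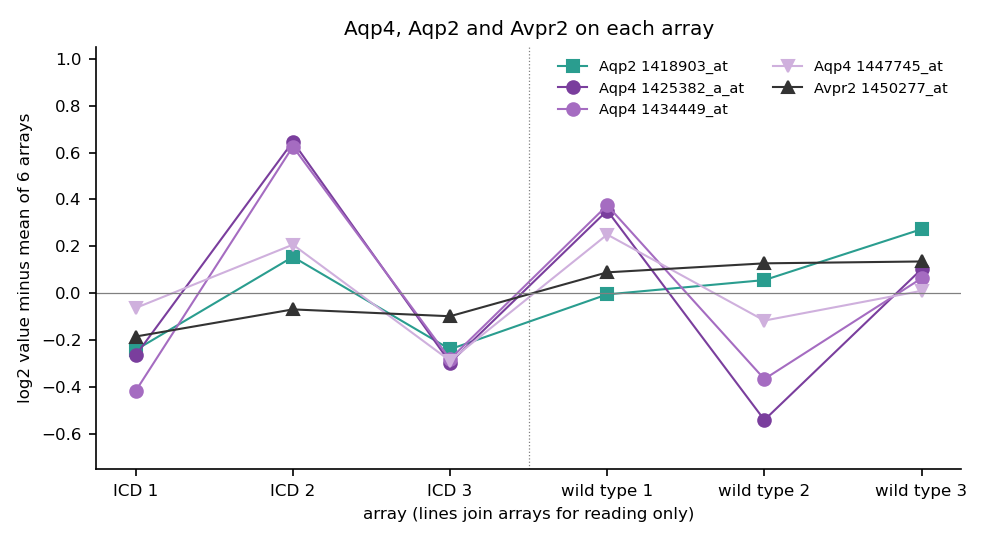
Log2 value centred on the 6 arrays (y axis) for the 3 Aqp4 probe sets, Aqp2 and Avpr2 on each array (x axis, genotypes divided by the dotted line). Both bright Aqp4 probe sets peak on ICD 2 and wild type 1, while Avpr2 is below 0 on all ICD arrays and above 0 on all wild type arrays.

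In the proximal tubule, Aqp1 was nearly level. This constitutive channel read 12.59, 12.80 and 12.65 in ICD kidneys and 12.80, 12.58 and 12.73 in wild type kidneys, and the groups overlapped. The difference at its only probe set, 1416203_at, was -0.019 ± 0.087 (SE), with an interval of -0.22 to 0.18 and a limma adjusted p of 0.996. Without 1 array it lay between -0.081 and 0.030. On the array labelled wild type 3, Aqp1 (12.73) ranked between the extremes of the remaining arrays. Aqp1 is also made by red cell precursors and by vessels of the medulla. The 8 endothelial markers had a centred mean of -0.053, 0.032 and 0.20 on the ICD arrays and 0.27, -0.086 and -0.36 on the wild type arrays, and the 4 erythroid ones lay between -0.11 and 0.12. Their part in the Aqp1 level was not tested.

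Aqp7 had 2 probe sets from 1 source sequence. At 1418848_at the ICD kidneys read 7.81, 7.94 and 7.82 and the wild type kidneys 7.85, 7.94 and 7.93, so the groups differed by -0.054 (interval -0.21 to 0.11). At 1418849_x_at, whose suffix marks probes that may also bind other transcripts, the difference was -0.0055 and its sign turned without ICD 1 (0.065). Fat tissue also expresses Aqp7. All 6 adipose markers were higher in ICD kidneys (median 0.295, 0.090 with 5 of 6 higher without wild type 1, and 0.46 once the array labelled wild type 3 was dropped), and their part in the Aqp7 level was not tested.

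Aqp11, an intracellular channel needed for the health of proximal tubule cells, had the only positive difference at the brightest probe set of a proximal channel. At 1429254_at the ICD kidneys read 9.96, 10.03 and 9.94 and the wild type kidneys 9.95, 9.80 and 9.92. ICD 3 lay just below wild type 1, so the groups overlapped. The difference was 0.088 ± 0.071 (SE, interval -0.075 to 0.25, limma adjusted p = 0.951), and 0.042 without wild type 2. The other Aqp11 probe sets differed by 0.019 (1447606_x_at) and -0.025 (1455846_at, mean 5.08).

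Aqp8 was dim, with a mean of 5.74 at its probe set 1417828_at. It read 6.10, 5.41 and 5.41 in ICD kidneys and 5.61, 5.93 and 5.96 in wild type kidneys. ICD 1 was the highest of all 6, and the other ICD kidneys were the lowest. The groups differed by -0.19 (interval -0.62 to 0.23, limma adjusted p = 0.967). Single arrays decided the size: it was -0.42 without ICD 1, -0.30 without wild type 1, -0.081 without ICD 2 and -0.078 without ICD 3. Dropping the array labelled wild type 3 gave -0.13.

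Aqp6, the vesicle channel of acid-secreting intercalated cells, gave different answers at its 4 probe sets. The brightest, 1441978_at, read 9.98, 10.19 and 9.68 in ICD kidneys and 9.92, 9.96 and 9.98 in wild type kidneys. They differed by -0.0043, with an ICD SD of 0.26 against 0.028. At 1459982_a_at the ICD kidneys read 7.45, 7.53 and 7.69 and the wild type kidneys 7.81, 7.74 and 7.76, without overlap. That difference was -0.21 ± 0.079 (SE, interval -0.39 to -0.032, limma adjusted p = 0.8, unadjusted p = 0.0264), and it stayed between -0.28 and -0.16 with 1 array left out. The brighter 1447974_s_at was designed from the same source sequence and differed by -0.0033, with ICD values of 8.71, 8.99 and 8.80 on both sides of the wild type values of 8.83, 8.86 and 8.83. The dim 1420035_at differed by -0.068. The 11 intercalated cell markers were split, 5 higher and 6 lower (median -0.022). The median was 0.063 (7 higher) without ICD 3, -0.060 (2 higher) without ICD 2, -0.053 without ICD 1 or wild type 1, -0.0021 without wild type 2 and 0.0040 (6 higher) once the array labelled wild type 3 was dropped. Their centred mean was 0.027, 0.11 and -0.16 on the ICD arrays, the same order as at 1441978_at.

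**Figure D3:**
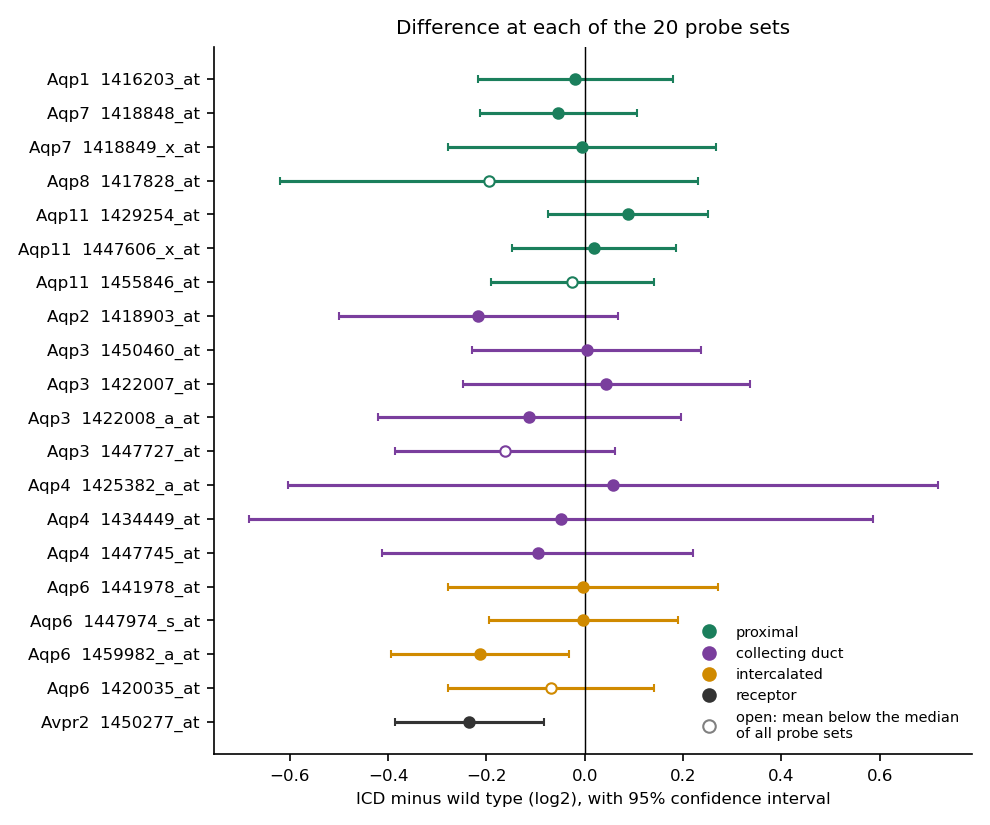
ICD minus wild type difference (x axis, log2) at the 20 probe sets (y axis), with 95% confidence intervals from limma, coloured by the segment of the channel, open where the mean was below that of the median probe set. Only the intervals of Aqp6 1459982_a_at and Avpr2 exclude 0, before adjustment for 45037 probe sets.

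Proximal and collecting duct channels were set against each other on each array, with the brightest probe set of each gene centred on the 6 arrays. The mean of the 4 proximal channels (Aqp1, Aqp7, Aqp8 and Aqp11) was 0.055, -0.017 and -0.11 on the ICD arrays and -0.0082, -0.00020 and 0.076 on the wild type arrays. The mean of the 3 collecting duct channels (Aqp2, Aqp3 and Aqp4) was -0.20, 0.31 and -0.19 on the ICD arrays and 0.075, -0.19 and 0.19 on the wild type arrays. Their difference, proximal minus collecting duct, was 0.25, -0.33 and 0.084 in ICD and -0.083, 0.19 and -0.11 in wild type kidneys. Both signs occurred in both groups. The means were 0.0035 ± 0.30 (SD, n = 3) and -0.0035 ± 0.17, so the groups differed by 0.0069, far less than the spread between animals. With 1 array left out the value lay between -0.12 and 0.17. By probe sets, 5 of 7 proximal ones were lower (median -0.019) and 5 of 8 collecting duct ones (median -0.072).

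Ranks within a group were uneven between animals at these probe sets. ICD 2 was the highest of the 3 ICD arrays at 16 of the 20 probe sets, where it was highest at 37.2% of all probe sets, and ICD 1 was the lowest at 13 of 20, against 30.9% of all. Probe sets of 1 gene share a transcript, so these counts are not of independent measurements. Among the wild type animals, wild type 1 and the array labelled wild type 3 were each highest at 8 of 20, near their shares of all probe sets (33.7% and 35.3%). Wild type 1 was also lowest at 10 of 20 (33.2% of all) and wild type 2 at 9 (35.2%). The array labelled wild type 3 was lowest at 1 of 20, against 31.7% of all.

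**Figure D4:**
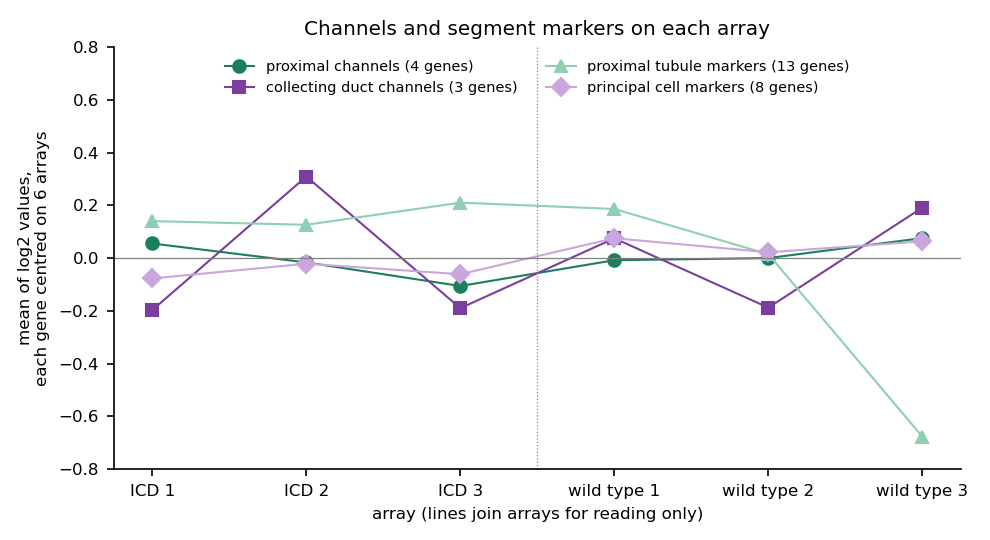
Mean of log2 values with each gene centred on the 6 arrays (y axis) for 4 proximal channels, 3 collecting duct channels and the markers of both segments on each array (x axis, genotypes divided by the dotted line). Collecting duct channels range from -0.20 to 0.31 with no order by genotype, and proximal markers drop to -0.68 on the array labelled wild type 3 while proximal channels stand at 0.076 there.

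Around the receptor and the channels, 66 genes in 6 lists were read from the same fit, with the brightest probe set of each gene. None passed at a limma adjusted p under 0.05. At an unadjusted limma p under 0.05, 1 was higher and 3 were lower, beside 3.61% higher and 2.26% lower of all probe sets. In sign, 28 were higher and 38 lower (median -0.0090). Over all genes 56.1% were lower (median -0.012). For the genes named below as without overlap, the share of all probe sets was 5.05% lower and 5.44% higher. Of the 18 genes of V2 receptor signalling through cAMP, 10 were higher and 8 lower (median 0.0011, and -0.019 to 0.023 with 1 array left out). They ran from Arrb1, the beta-arrestin that uncouples activated receptors, at -0.19 (limma adjusted p = 0.855) to Prkar2b, a regulatory subunit of protein kinase A, at 0.13. Gnas, the stimulatory G protein, and Adcy6, the adenylyl cyclase of principal cells, differed by 0.063 and 0.039. Crem, a cAMP-responsive transcription factor, read 7.18, 7.37 and 7.36 in ICD and 7.57, 7.43 and 7.39 in wild type kidneys, without overlap (difference -0.16, limma adjusted p = 0.9).

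Of the 24 genes that move or turn over the Aqp2 protein, 11 were higher and 13 lower (median -0.0072). The extremes were Rab11fip2, an adaptor of recycling vesicles, at -0.20, and Stx3, a target membrane SNARE, at 0.15. With 1 array left out the median of this list lay between -0.014 and 0.036. Ezr, a linker of membranes to actin, was higher in every ICD kidney (11.863, 12.018 and 11.891 against 11.840, 11.805 and 11.787), by 0.11 (limma adjusted p = 0.927).

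Transcription factors of the duct were divided. Of 10 measured, 4 were higher and 6 lower (median -0.011, and -0.018 to 0.027 with 1 array left out). Nfat5, which turns on osmoprotective genes and Aqp2 under hypertonic conditions, read 9.14, 9.24 and 9.15 in ICD kidneys and 9.01, 9.01 and 8.90 in wild type kidneys, without overlap (difference 0.20 ± 0.070 SE, limma adjusted p = 0.749). Elf3 and Elf5, epithelial ETS factors, differed the other way, by -0.19 ± 0.081 and -0.28 ± 0.11, also without overlap (adjusted p = 0.851 and 0.818). Of 5 medullary osmolyte and urea genes, 4 were lower (median -0.15, and -0.077 without ICD 1), with the lens chaperone Cryab lowest at -0.17. Slc14a2, the vasopressin-regulated urea transporter, read 9.23, 9.48 and 9.52 against 9.63, 9.53 and 9.55, without overlap (difference -0.16, limma adjusted p = 0.911). Slc6a6, the taurine transporter, differed by 0.087. The list's centred mean was -0.089, -0.0078 and -0.041 on the ICD arrays and 0.0057, 0.066 and 0.065 on the wild type arrays.

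Among the other aquaporins, Aqp5 lies between Aqp2 and Aqp6 on chromosome 15. It was dim and read 5.11, 5.13 and 5.36 in ICD kidneys and 5.34, 5.60 and 5.36 in wild type kidneys, with overlap of ICD 3 (difference -0.23 ± 0.10 SE, limma adjusted p = 0.846, unadjusted p = 0.0471). Mip, the channel of the eye lens, differed by 0.019, and 3 of the 4 were lower (2 without ICD 1, ICD 2 or wild type 1). Of 5 genes of the vasopressin and oxytocin family, 4 were lower, from Avp at -0.13 to the oxytocin receptor Oxtr at 0.080. Avpr1a, the vasopressin receptor of vessels and intercalated cells, differed by -0.099 (limma adjusted p = 0.96).

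**Figure D5:**
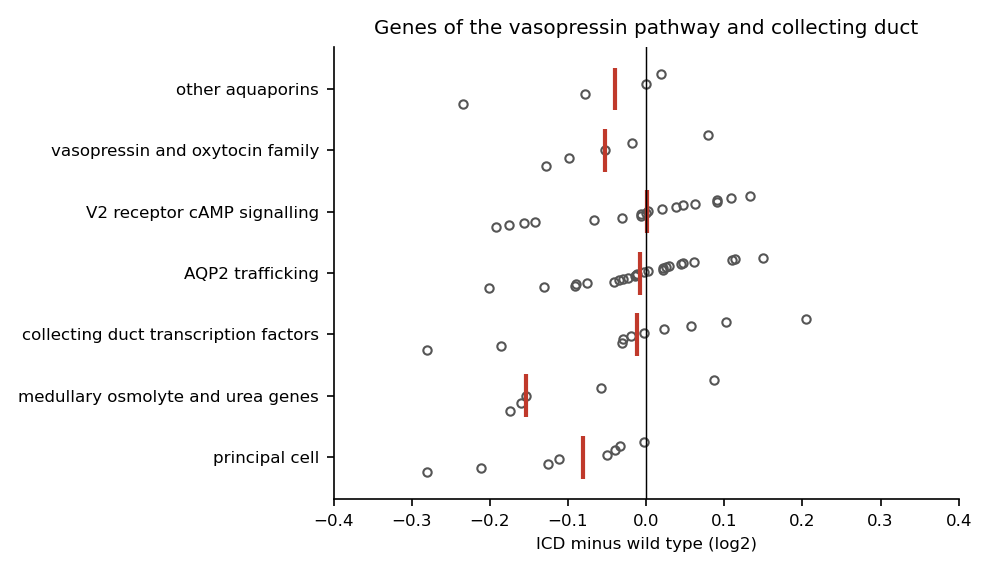
ICD minus wild type difference (x axis, log2) of each gene (circles) in 6 lists of function and the principal cell markers (y axis), with the median of each list as a red bar. The medians of signalling (0.0011) and trafficking (-0.0072) lie at 0, those of osmolyte genes (-0.15, or -0.077 without ICD 1) and principal cells (-0.081) to the left.

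Markers of other cell types differed as follows. All 5 podocyte markers were higher (median 0.41, and 0.31 to 0.52 with 1 array left out). Each of the 5 had an unadjusted limma p under 0.05 and groups without overlap (lowest adjusted p 0.643). Of all probe sets, 3.61% were higher at that p and 5.44% were higher without overlap. All 8 endothelial markers were higher (median 0.11), but 2 of 8 were once the array labelled wild type 3 was dropped (median -0.049). The endothelial median was 0.059 (5 of 8 higher) without ICD 3 and 0.26 without wild type 1. Of 13 proximal tubule markers, 11 were higher (median 0.17), and 8 were when the array labelled wild type 3 was dropped (median 0.063). Thin limb markers were lower for 3 of 4 (median -0.17, and -0.086 without ICD 1), counting Slc14a2, which is also among the osmolyte genes. Thick limb markers were lower for 4 of 6 (median -0.053), with medians of -0.091 to -0.031 when ICD 1, ICD 3 or any wild type array was dropped. These markers ran from Ptger3 at -0.35, without overlap (limma adjusted p = 0.6), to Cldn16 at 0.026. Over all probe sets the groups failed to overlap in the lower direction for 5.05%. Urothelial markers were lower for 5 of 6 (median -0.084, with -0.033 without wild type 1, -0.044 without ICD 2 and -0.13 without ICD 1). Erythroid markers were lower for 3 of 4 (median -0.074, with -0.011 without ICD 2 and -0.12 without ICD 1 or wild type 2). Late proximal markers were higher for 2 of 3 (median 0.044), and leaving out any 1 array moved that median, to between 0.0053 (without ICD 2) and 0.098 (without ICD 3). None of these markers passed at a limma adjusted p under 0.05. Their part in the differences of the channels and the receptor was not tested.

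The genes whose log2 values followed Avpr2 most closely over the 6 arrays, among 11690 genes at or above the median level, were Tmem41b (Pearson r = 0.998, Spearman rho = 1.0), Rbpms (r = 0.996, rho = 1.0), Mtus1 (r = 0.986), Cdkn2b (r = 0.985) and Ccdc127 (r = 0.985). Those closest to Aqp2 were Srebf1 (r = 0.991, rho = 0.943), Ppp2r3c (r = 0.989), Ddx24 (r = 0.988), Tceanc (r = 0.985) and Sh2d4a (r = 0.984). No gene was on both lists, but lists this short from 11690 genes would seldom share a gene, so nothing is read from it. For Aqp4, a gene chosen after its values were seen, Tmem51 (r = 0.991, rho = 0.943), Acp6 (r = 0.989), Trav9d-3 (r = 0.986), Sec63 (r = 0.984) and Slc22a5 (r = 0.983) came closest. These are the highest of many correlations over 6 arrays that share 1 normalization, and they carry no p.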

How the data were processed

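The deposited table holds 1 log2 value per probe set and array, made with RMA, as the submitters' processing notes name it. This method corrects the background, gives all arrays 1 distribution and summarises the probes of a set, so differences of dim probe sets are compressed. Its version and chip definition are not given in the sources used here. The table had 45101 rows, and 64 control rows were left out. Array medians lay between 6.62 and 6.66, and correlations between arrays between 0.9949 and 0.9966. Arrays give no read depth, and the precision is limited by 3 animals per group. The labels call the replicates biological.

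Genes were named from the platform annotation (34945 probe sets with 1 symbol, 932 with several, 9160 with none), checked by Entrez ID against RefSeq GRCm38.p6, in which 34741 were found and 0 symbols updated. Promoter sequences come from RefSeq on that assembly. The genotype comparison used lmFit and eBayes of limma 3.58.1 under R 4.3.3 (genotype only, 2-sided), with Benjamini-Hochberg adjustment over all 45037 probe sets. The fit was tested on simulated data. An exact permutation test of 3 against 3 cannot give a p below 0.1, so none was used. The genes and lists were chosen with earlier results of these data known. Each list used the probe set with the highest mean of a gene. Some genes were in more than 1 list, so those lists are not independent. Slc14a2 was in the thin limb and osmolyte lists, and Elf5 and Gata3 in the principal cell and transcription factor lists. Named genes were all probe sets of the 9 genes, the extremes of each function list and those with unadjusted p under 0.05. Genes named beyond that rule, such as Crem, Ezr, Scnn1a, Ptger3, Cldn16, Slc14a2, Gnas and Adcy6, were chosen after their values were seen. The alternatives were another prior, bright probe sets alone, repeated quantile normalization, array weights, a replicate block, the mean over all probe sets of a gene and leaving out each array.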

Additional observations from a re-analysis of the deposited data

How the results depend on the processing

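Of 216 differences of the 20 probe sets under 11 other fits, 185 kept their sign and 31 turned it, and 7 probe sets kept 1 sign throughout. The other prior, the replicate block and bright probe sets alone leave the estimates unchanged, so under them no sign could turn. The 185 include these values, so that count overstates how stable the signs are. No probe set of the 9 genes passed in any of the 11 fits (lowest limma adjusted p 0.551, Avpr2 among bright probe sets alone). Over all probe sets the count past the threshold was 1 with a trended and robust prior and 0 to 1 with 1 array left out, the 1 without ICD 1, ICD 2 or the array labelled wild type 3. With array weights Aqp3 1450460_at differed by -0.015 and Aqp4 1425382_a_at by -0.042, and with repeated quantile normalization 1450460_at differed by -0.0026. With 1 array left out the differences ranged from -0.081 to 0.030 (Aqp1), -0.14 to 0.065 (Aqp7 1418849_x_at), -0.032 to 0.059 (Aqp11 1447606_x_at), -0.071 to 0.011 (Aqp11 1455846_at), -0.057 to 0.10 (Aqp3 1450460_at), -0.086 to 0.13 (Aqp3 1422007_at), -0.22 to 0.0091 (Aqp3 1422008_a_at), -0.25 to 0.25 (Aqp4 1425382_a_at), -0.37 to 0.15 (Aqp4 1434449_at), -0.22 to 0.024 (Aqp4 1447745_at), -0.13 to 0.13 (Aqp6 1441978_at), -0.082 to 0.060 (Aqp6 1447974_s_at) and -0.15 to 0.016 (Aqp6 1420035_at). The cause was not tested. Deviations from the group means correlated at -0.0057, 0.0077 and -0.047 between arrays of the same replicate number. Between arrays of different numbers they correlated at -0.062 to 0.076. With 3 arrays per group these values cannot tell whether the numbers pair the animals. With the replicate block 0 probe sets passed. Of 187 list medians under alternatives, 7 moved by more than the spread between animals.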
